A study of Mus musculus with 2 samples.

Results

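The 10 genes described here encode the glucose transporter Slc2a1 and 9 enzymes or isoforms of glycolysis, Hk1, Hk2, Gpi1, Pfkp, Aldoa, Tpi1, Pgk1, Pkm and Ldha. They were chosen by symbol among the 31053 gene rows of each library, and 11 rows matched. The symbol Aldoa stands on 2 rows, and the second of them (ENSMUSG00000114515) held 0 UMIs without butyrate and 1 with butyrate against 14807 and 14009 on the first, so only the first (ENSMUSG00000030695) was used. Single-cell RNA of mediastinal lymph nodes (MedLNs), which drain the lung, was measured in 2 droplet libraries of wildtype C57/B6J mice with asthma induced by ovalbumin (OVA). One library came from mice without butyrate supplementation and the other from mice given butyrate, a short-chain fatty acid labelled C4, and the cells of 4 mice were pooled in each. Both groups thus carried the same genotype and the same OVA model, the labels give no age, and no library of unchallenged mice was analysed here. The libraries held 9681 and 8932 cell barcodes, of which 25 occurred in both, and 59176459 and 58381292 UMIs in all, with medians of 5140 and 5651 UMIs per barcode, and 8774 and 8013 cells passed the filters. With 1 library per condition no test between conditions exists, and each 95% interval below covers counting error only.

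Glycolysis splits glucose into pyruvate in the cytosol. Slc2a1 carries glucose into the cell, hexokinases (Hk1, Hk2) trap it by phosphorylation, Gpi1 isomerizes the product, Pfkp belongs to phosphofructokinase, the committed step, and Aldoa and Tpi1 deliver the triose phosphates. Pgk1 and Pkm make ATP, and Ldha turns pyruvate into lactate, which regenerates NAD+ so that the pathway can keep running when oxygen is present as well. Lymphocytes are known for switching from a resting metabolism to high glycolysis when they are activated and divide, and the factors Myc and Hif1a are known to bind and drive many of these genes.

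Cells were placed by a few UMIs, the counts of single captured RNA molecules. B cells had at least 2 UMIs of Cd79a and 0 of Cd3e, Cd4, Cd8a and Foxp3. T cells had at least 1 UMI of Cd3e and 0 of Cd79a, and were divided by Cd4, Cd8a and Foxp3, the marker of regulatory T cells. A cycling cell had at least 1 UMI of each of Mki67 and Top2a, a resting cell 0 of both, and a cell with only 1 of the 2 genes stood between. There were 3788 resting and 63 cycling B cells without butyrate, and 3617 and 21 with butyrate. T cells numbered 3255 resting and 48 cycling without butyrate, and 2977 and 35 with butyrate. The cycling T cells without butyrate held 13 CD4+, 9 CD8+ and 22 Foxp3+ cells, and those with butyrate 13, 8 and 11. Resting T cells held 814, 1355 and 123 of these without butyrate and 729, 1377 and 122 with butyrate. Foxp3+ cells thus took a larger share of cycling than of resting T cells. The Foxp3+ call needs at least 1 UMI of Foxp3, and cycling T cells were deeper. Their medians were 21370 and 25190 UMIs against 5706 and 6730 UMIs at rest, and the part of depth in these shares was not tested. The part of the subset mix in the T cell ratios below was not tested either.

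The classes were checked with markers that the gates did not use. Cd79b, a chain of the B cell receptor complex, had 1747 and 1858 CPM, counts of the class per 1000000 of all its UMIs, in resting B cells of the 2 libraries and 22.8 and 22.9 CPM in resting T cells. Ms4a1, which encodes CD20, had 958 and 1019 CPM in resting B cells and 4.81 and 3.45 CPM in resting T cells. The T cell list (Cd3d, Cd3g, Trac, Trbc2, Lck) gave 4485 and 4377 CPM in resting T cells against 62.5 and 62.9 CPM in resting B cells. The cell cycle list (Pcna, Mcm5, Birc5, Ccnb1, Cdk1) reached 899 and 807 CPM in cycling B cells and 1233 and 1222 CPM in cycling T cells, and lay between 40.0 and 47.1 CPM in the 4 resting classes. Cycling B cells were a mixed class. The plasma cell list (Jchain, Sdc1, Xbp1, Mzb1, Tnfrsf17) summed to 5978 and 4761 CPM in them against 786 and 500 CPM in resting B cells, with all 5 genes detected. Genes of germinal center B cells were higher in them too, with Mef2b at 114 and 125 CPM against 9.12 and 10.7 CPM and Rgs13 at 98.5 and 68.4 CPM against 1.59 and 2.87 CPM, while Cd79b was lower, at 962 and 860 CPM. The myeloid list (Lyz2, Csf1r, C1qa, Itgam, Fcer1g) lay between 2.02 and 32.5 CPM in the resting and cycling classes of all B and all T cells. In resting CD4+ cells it was at 17.4 CPM without and 104 CPM with butyrate. The NK list (Ncr1, Klrb1c, Nkg7, Gzma, Klrk1) lay at 403 and 432 CPM in resting and 303 and 221 CPM in cycling T cells. In resting and cycling B cells it lay at 4.85 CPM or less. Most of it in resting T cells was Nkg7, at 374 and 410 CPM, with Ncr1 at 0.61 and 0.76 CPM. Resting CD8+ cells had 662 and 689 CPM of the list and resting CD4+ cells 17.6 and 17.1 CPM. Cycling cells were also deeper, with medians of 20923 and 16227 UMIs for B cells and 21370 and 25190 UMIs for T cells. The matching resting classes had 4329, 4592, 5706 and 6730 UMIs. All levels are therefore CPM of the summed class unless UMIs per cell are named. The cycling call needs UMIs of both Mki67 and Top2a and the resting call 0 of both. B cells with only 1 of the 2 genes had medians of 5558 and 5147 UMIs. The part of the gate in the depth difference was not tested. The part that plasma cells and cell depth have in the results was not tested, and values without them are given below.

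The start-site regions of 5 of the genes, picked by name, are shown. Of these, Tpi1, Pgk1, Pkm and Ldha had cycling levels above resting levels in both lineages and both libraries, while Gpi1 was nearly level in B cells. Hk2 was also higher in the cycling cells of both lineages and libraries, on few UMIs, and its region is not shown. Each run is the 250 bases upstream of the most upstream start listed for the gene in the RefSeq table used here, on GRCm38.p6. It is written 5′ to 3′ along the gene's strand. The gene spans given further below come from another annotation, in which some genes start further upstream. By those spans the Ldha window lies inside the gene, and the Tpi1 and Pkm windows lie partly inside theirs. Capitals mark ACGTG on either strand, the core of sites that Hif1a and Myc can read, and CACGTG, the E-box, contains that core. Tpi1 lies at chr6:124814159-124814408 (minus strand), Pgk1 at chrX:106186850-106187099 (plus), Pkm at chr9:59656326-59656575 (plus), Ldha at chr7:46845554-46845803 (plus) and Gpi1 at chr7:34230337-34230586 (minus).
Tpi1: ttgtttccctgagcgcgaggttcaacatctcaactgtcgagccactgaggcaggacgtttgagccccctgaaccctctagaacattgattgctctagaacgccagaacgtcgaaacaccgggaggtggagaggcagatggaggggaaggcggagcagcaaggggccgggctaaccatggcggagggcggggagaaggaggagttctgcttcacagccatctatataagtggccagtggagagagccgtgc
Pgk1: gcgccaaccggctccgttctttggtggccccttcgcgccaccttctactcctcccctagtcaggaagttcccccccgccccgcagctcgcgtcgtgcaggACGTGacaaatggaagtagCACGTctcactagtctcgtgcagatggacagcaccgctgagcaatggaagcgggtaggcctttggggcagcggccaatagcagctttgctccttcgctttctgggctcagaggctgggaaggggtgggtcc
Pkm: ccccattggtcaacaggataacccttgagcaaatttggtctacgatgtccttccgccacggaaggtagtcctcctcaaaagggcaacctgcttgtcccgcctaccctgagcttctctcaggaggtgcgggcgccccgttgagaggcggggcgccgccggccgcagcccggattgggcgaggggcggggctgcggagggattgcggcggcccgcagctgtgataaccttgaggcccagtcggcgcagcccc
Ldha: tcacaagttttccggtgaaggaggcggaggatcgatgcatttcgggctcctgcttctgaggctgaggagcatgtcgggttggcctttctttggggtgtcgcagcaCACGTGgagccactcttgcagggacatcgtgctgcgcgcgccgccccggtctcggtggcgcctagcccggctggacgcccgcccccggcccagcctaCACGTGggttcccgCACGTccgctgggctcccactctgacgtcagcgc
Gpi1: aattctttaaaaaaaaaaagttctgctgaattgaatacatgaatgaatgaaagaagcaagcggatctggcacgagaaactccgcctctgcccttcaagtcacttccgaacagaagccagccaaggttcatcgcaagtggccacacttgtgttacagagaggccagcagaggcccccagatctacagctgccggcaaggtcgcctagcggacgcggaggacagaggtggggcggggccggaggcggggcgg

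The Ldha window held 2 CACGTG motifs and 3 capital stretches in all, and the Pgk1 window held 2 stretches with 0 CACGTG. In the windows of Tpi1, Pkm and Gpi1 the letters ACGTG did not occur on either strand. All 10 genes matched the RefSeq table. Over all their listed starts, 6 of the 10 had ACGTG in at least 1 window (Slc2a1, Hk2, Aldoa, Pgk1, Pkm at a second start, Ldha) and 1 had CACGTG. That was 7 of the members' 15 windows, or 46.7%, where 16.6% of all 32851 windows of the same length held ACGTG and 6.02% held CACGTG. Counted by gene, 18.5% of the 27025 genes in the table had ACGTG in at least 1 window. The windows shown above held 55.2% to 67.2% G and C, against 53.2% over all windows. The part of base composition in these shares was not tested. Tpi1 had neither motif in this stretch, and these matches describe letters only.

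The 10 genes together took nearly the same share of RNA in resting B and resting T cells, and 1.85 to 3.30 times that share in cycling cells. Resting B cells gave 1009 CPM without butyrate (95% Poisson interval 995 to 1024) and 988 CPM with butyrate (974 to 1002). Cycling B cells gave 2028 CPM (1956 to 2101) and 1829 CPM (1705 to 1961). In T cells the sum was 1055 CPM (1041 to 1069) and 1086 CPM (1072 to 1100) at rest, and 3183 CPM (3081 to 3286) and 3582 CPM (3465 to 3702) in cycling cells. None of the resting intervals came near a cycling one in the same lineage. The cycling cells also held more UMIs of all genes, and the count per cell differed further. A resting B cell held 5.02 and 5.24 UMIs of the 10 genes against 47.7 and 38.2 in a cycling one. A resting T cell held 6.40 and 7.72 against 77.6 and 101 in a cycling one. These counts differed 9.50- and 7.29-fold in B cells, where all genes together differed by 4.73- and 3.94-fold. In T cells they differed 12.1- and 13.1-fold, where all genes differed by 4.02- and 3.98-fold.

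**Figure D1:**
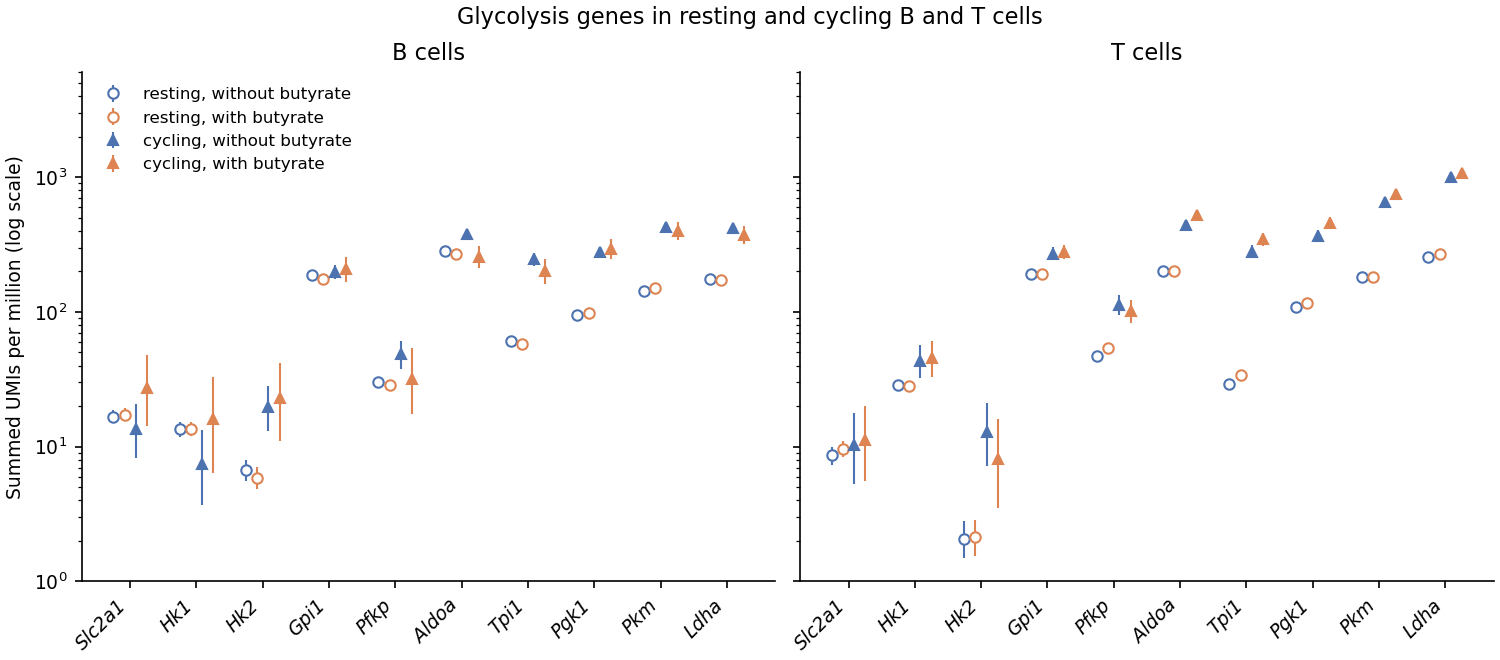
CPM of each gene (log axis) in B cells (left) and T cells (right), summed over the cells of a class. Open circles are resting and triangles cycling cells, blue without and orange with butyrate, and bars are 95% Poisson intervals; in T cells the widest gap between circles and triangles is at Tpi1, 29.3 against 280 CPM without butyrate.

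In single cells, too, cycling lay above resting in each lineage and library. Per 10000 UMIs of a cell, the median resting B cell held 8.74 UMIs of the 10 genes without and 8.80 with butyrate, and the median cycling B cell 14.5 and 15.9. The median resting T cell held 9.63 and 9.99, and the median cycling T cell 31.0 and 29.4. Between the libraries the cycling medians ran opposite to the cycling sums, higher with butyrate in B cells and lower in T cells. Cycling B cells overlapped resting ones, with lower quartiles of 9.15 without and 11.96 with butyrate against upper quartiles of 12.8 and 12.4 at rest. Cycling T cells overlapped less, with lower quartiles of 19.6 and 17.2 against upper quartiles of 13.0 and 13.2 at rest. After each cell was thinned to 2000 UMIs, which left out 38 and 17 resting B cells and 16 and 15 resting T cells and no cycling cell, the mean was 1.93 and 1.91 UMIs in resting B cells, 3.60 and 2.95 in cycling B cells, 2.08 and 2.14 in resting T cells and 6.25 and 6.31 in cycling T cells. Cells between the 2 states lay near the resting cells in the B lineage, at a summed log2 ratio over resting cells of 0.11 (0.04 to 0.18) and 0.02 (-0.08 to 0.11), and further up in the T lineage, at 0.51 (0.45 to 0.57) and 0.37 (0.30 to 0.44).

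**Figure D2:**
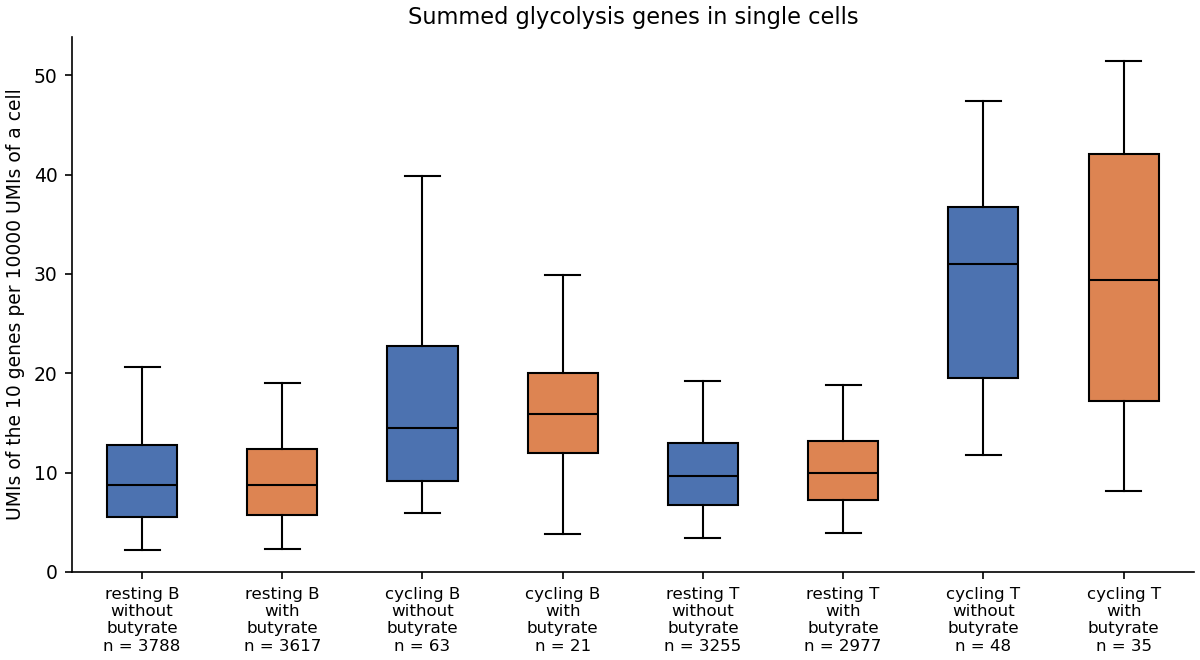
UMIs of the 10 genes per 10000 UMIs of each cell, by state, lineage and library, with the number of cells under each box. Boxes span the quartiles with the median as a line and whiskers reach the outermost cells within the 5th to the 95th percentile; the median is 31.0 in cycling T cells without butyrate and 9.63 in resting ones.

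Glucose uptake and the hexokinase step came first in the pathway and had the lowest counts. Slc2a1, the glucose transporter (chr4:119108711-119137983, plus strand, GRCm38), had 16.7 CPM in resting and 13.5 CPM in cycling B cells without butyrate, and 17.3 and 27.4 CPM with butyrate. In T cells it had 8.61 and 10.2 CPM without butyrate and 9.64 and 11.1 CPM with butyrate. Its cycling counts were only 11 to 20 UMIs per class and all 4 log2 intervals spanned 0, so that a difference was not detectable at this depth. Hk1 (chr10:62268855-62379908, minus), the isoform of most resting tissues, had 28.9 CPM in resting and 43.6 CPM in cycling T cells without butyrate (log2 ratio 0.59, 0.15 to 1.01) and 28.4 and 45.5 CPM with butyrate (0.68, 0.21 to 1.12). Within Foxp3+ cells it had 47.5 CPM at rest and 51.6 CPM in cycling cells without butyrate, and 41.6 and 41.5 CPM with butyrate. In CD8+ cells without butyrate it had 24.3 and 31.3 CPM. Its level was also higher in cycling than in resting CD8+ cells with butyrate, on 13 cycling UMIs. The same held in CD4+ cells without and with butyrate, on 12 and 12 cycling UMIs. In B cells without butyrate it had 13.4 CPM at rest and 7.42 CPM in cycling cells (-0.85, -1.88 to 0.01), and with butyrate 13.5 and 15.97 CPM from 7 UMIs in cycling cells (0.24, -1.09 to 1.31). The B cell values thus pointed in opposite directions in the 2 libraries, with both intervals including 0, and without cells of 5 or more Jchain UMIs the first turned to 0.32. After thinning, the T cell value without butyrate turned to -0.52.

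Hk2 (chr6:82725025-82774454, minus), the inducible hexokinase that binds mitochondria, had few UMIs in every class. It had 6.68 CPM in resting and 19.6 CPM in cycling B cells without butyrate, a log2 ratio of 1.55 (0.91 to 2.14), and 5.89 and 22.8 CPM with butyrate (1.95, 0.85 to 2.88). The 10 UMIs of the cycling B cells with butyrate lay in 3 of the 21 cells. In T cells it had 2.08 and 12.8 CPM without butyrate (2.62, 1.67 to 3.51), and 2.13 and 8.08 CPM with butyrate (1.93, 0.63 to 3.03), from 15 and 8 UMIs in cycling cells. Without the 1 cell richest in the 10 genes the ratio in B cells with butyrate turned to -0.13, and without cells of 5 or more Jchain UMIs the B cell ratios were 0.72 and 0.02. Only the B cells without butyrate passed the count filter for this gene, and only with the 29 cycling UMIs counted in, since the resting level alone gave 9.91 expected UMIs. Counted as a share of all Hk1 and Hk2 UMIs, which as 3′ tags do not scale with transcript length, Hk2 made up 33.2% (exact binomial interval 28.5 to 38.2) and 30.4% (25.7 to 35.3) in resting B cells but 6.70% (4.85 to 8.98) and 6.97% (5.13 to 9.21) in resting T cells. In cycling B cells the share was 72.5% (56.1 to 85.4) and 58.8% (32.9 to 81.6), and in cycling T cells 22.7% (13.3 to 34.7) and 15.1% (6.75 to 27.6). Without cells of 5 or more Jchain UMIs the B cell log2 ratios without butyrate were 0.72 for Hk2 and 0.32 for Hk1. With butyrate they were 0.02 for Hk2 and 0.80 for Hk1, so there Hk2 was not the one that differed more. The share itself was not computed without those cells. The intervals of resting and cycling cells separated in both lineages without butyrate and overlapped in both lineages with butyrate. The cycling shares lay above the resting ones in both libraries, and the counts with butyrate were smaller. Cycling B cells had 10 UMIs of Hk2 and 7 of Hk1 with butyrate, against 29 and 11 without. Cycling T cells had 8 and 45 with butyrate, against 15 and 51 without.

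**Figure D3:**
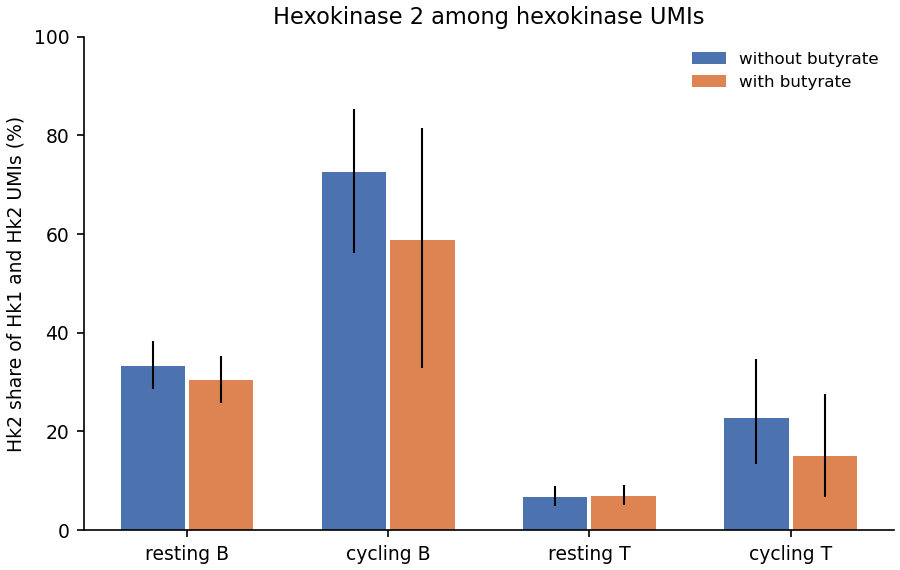
Hk2 as a percentage of the Hk1 and Hk2 UMIs of each class, blue without and orange with butyrate; bars start at 0 and lines are exact 95% binomial intervals. The 4 B cell bars stand above the 4 T cell bars, from 30.4% to 72.5% against 6.70% to 22.7%.

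The middle steps differed unevenly between resting and cycling cells. Gpi1 (chr7:34201330-34230336, minus) was at 187 CPM in resting and 197 CPM in cycling B cells without butyrate and at 174 and 208 CPM with butyrate, log2 ratios of 0.08 (-0.10 to 0.25) and 0.25 (-0.06 to 0.56). In T cells it was at 191 and 271 CPM and at 191 and 278 CPM, or 0.50 (0.33 to 0.67) and 0.54 (0.36 to 0.72), the latter -0.0024 after thinning. Within Foxp3+ cells Gpi1 had 251 CPM at rest and 262 CPM in cycling cells without butyrate, and 269 and 240 CPM with butyrate. In CD8+ cells without butyrate it had 194 and 295 CPM. Pfkp (chr13:6579768-6648777, minus) had 47.1 and 113 CPM in T cells without butyrate, a 2.40-fold difference, and 53.9 and 101 CPM with butyrate, 1.87-fold. In B cells its ratio was 0.68 (0.31 to 1.04) without butyrate, which turned to -0.29 without cells of 5 or more Jchain UMIs and to -0.04 against resting cells of at least 10000 UMIs, and 0.14 (-0.74 to 0.90) with butyrate on 14 cycling UMIs. Aldoa (chr7:126795234-126800751, minus) separated the lineages: cycling T cells stood 2.16- and 2.57-fold above resting ones (203 to 438 CPM and 202 to 520 CPM), whereas cycling B cells were at 378 CPM against 281 CPM without butyrate (0.43, 0.30 to 0.55) and at 255 CPM against 269 CPM with butyrate (-0.07, -0.36 to 0.20), a value that turned to 0.28 without doublet removal. The difference between lineages in this ratio was not tested.

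Tpi1 (chr6:124810586-124814296, minus), the enzyme that interconverts the triose phosphates, showed the largest fold among the members that passed the count filter, in each lineage and library. That rank was lost in B cells with butyrate against resting cells of at least 10000 UMIs, where Pgk1 stood at 1.25 and Tpi1 at 1.02 on the log2 scale. It had 61.1 CPM in resting and 245 CPM in cycling B cells without butyrate, a 4.01-fold difference, and 58.0 and 201 CPM with butyrate, 3.46-fold. In T cells it had 29.3 and 280 CPM without butyrate, 9.57-fold (log2 3.26, 3.06 to 3.46), and 33.8 and 345 CPM with butyrate, 10.2-fold (3.35, 3.16 to 3.54). The fold was smaller within Foxp3+ cells, with 63.9 and 306 CPM without butyrate and 67.5 and 293 CPM with butyrate. It was also smaller in CD8+ cells without butyrate, with 27.9 and 188 CPM. In cells of only 1 of Mki67 and Top2a Tpi1 lay between, at 79.3 and 65.7 CPM in T cells, and at 80.9 and 55.3 CPM in B cells, where the value with butyrate was no higher than at rest. Reads that the members share with pseudogene copies may be missing from the counts.

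The lower steps were higher in cycling cells throughout. Pgk1 (chrX:106187100-106203699, plus), the first ATP-making step, had 94.7 and 276 CPM in resting and cycling B cells without butyrate and 98.6 and 294 CPM with butyrate, log2 ratios of 1.54 (1.38 to 1.70) and 1.58 (1.31 to 1.83). In T cells it had 109 and 367 CPM and 117 and 460 CPM, or 1.75 (1.60 to 1.90) and 1.98 (1.83 to 2.12). Pkm (chr9:59656368-59679375, plus), whose splice forms 3′ tags do not tell apart here, had 143 and 423 CPM and 150 and 399 CPM in B cells, and 181 and 653 CPM and 182 and 748 CPM in T cells. Those were 2.95- and 2.66-fold differences in B cells and 3.60- and 4.12-fold differences in T cells. Ldha (chr7:46841475-46855627, plus) had 176 and 420 CPM and 172 and 374 CPM in B cells, 2.39- and 2.17-fold, and 255 and 994 CPM and 267 and 1066 CPM in T cells, 3.90- and 3.99-fold. Every cycling interval of these 3 genes lay above the resting interval of its own library and lineage.

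A larger share of the members than of all genes was past 2-fold in each lineage and library, though no test stands behind this. In B cells without butyrate 5 of the 10 members were at least 2-fold higher in cycling cells (Hk2, Tpi1, Pgk1, Pkm, Ldha), against 10.0% of the 7727 genes compared. Hk2 entered that comparison only through its cycling UMIs. With at least 20 expected UMIs, where Hk2 is left out, it was 4 of 8 members against 9.45% of genes. With butyrate it was 4 of the 7 members that passed the filter of 10 expected UMIs, against 7.47% of 4487 genes. In T cells 6 of 9 members without butyrate and 5 of 8 with butyrate passed 2-fold, against 16% of 7055 and 16.4% of 6650 genes. The median log2 ratio of all 10 members, those under the filter included, was 0.97 and 0.89 in B cells and 1.51 and 1.64 in T cells, and that of all genes compared -0.10, -0.17, 0.14 and 0.19. Leaving ribosomal, mitochondrial and immunoglobulin genes out of the scaling moved the median of all genes in T cells to -0.21 and -0.19, with the members at 1.16 and 1.27, and turned Slc2a1 there to -0.09 and -0.17. In cycling B cells with butyrate 1 cell held 24.7% of the UMIs of the 10 genes, and without it the members' median was 0.47.

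**Figure D4:**
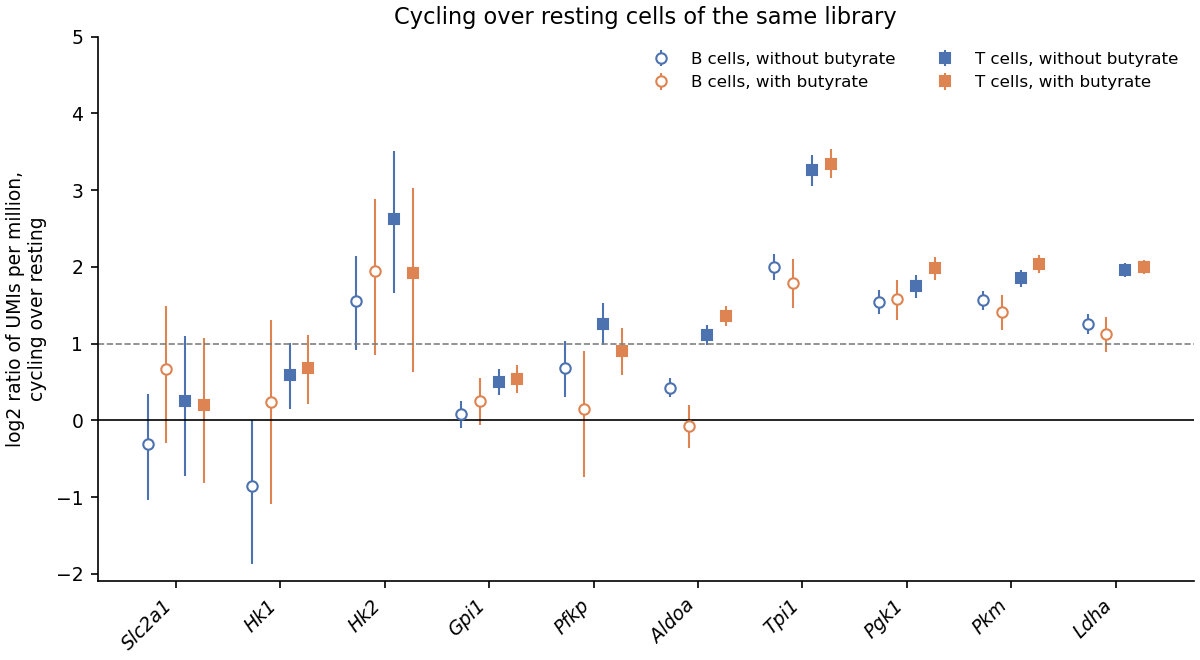
Log2 ratio of CPM in cycling over resting cells of the same library for each gene. Open circles are B cells and filled squares T cells, blue without and orange with butyrate, bars are exact 95% intervals and the dashed line marks 2-fold; Tpi1 lies at 3.26 and 3.35 in T cells, and Slc2a1 has all 4 intervals across 0.

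Plasma cell RNA moved with cycling in the B gate, so the class was also split by Jchain, a choice made after seeing the data. Of the cycling B cells, 32 of 63 without and 11 of 21 with butyrate had at least 5 Jchain UMIs, against 14 of 3788 and 5 of 3617 resting B cells. The cycling cells with that much Jchain gave 2140 CPM (2048 to 2236) and 1941 CPM (1778 to 2115) for the 10 genes, and the other cycling B cells 1830 CPM (1718 to 1948) and 1652 CPM (1464 to 1857), so both kinds lay above the resting level. Resting cells with that much Jchain lay below it, at 578 CPM (489 to 680) and 642 CPM (496 to 816), from 147 and 66 UMIs. These are shares of all UMIs, immunoglobulin genes included, and the part of immunoglobulin RNA in them was not tested. Those 14 and 5 cells were also deeper, with medians of 20189 and 25386 UMIs against 4325.5 and 4588 in the other resting B cells. Without the Jchain cells 4 of 7 and 2 of 6 members passed 2-fold, against 4.17% and 4.11% of genes, and the members' medians were 0.54 and 0.82. Against resting cells of at least 10000 UMIs, of which there were 140 and 182 B cells and 178 and 324 T cells, the members' medians were 0.55 and 0.70 in B cells and 1.14 and 1.25 in T cells. Tpi1 stood at 1.48 and 1.02 there in B cells and at 2.69 and 2.83 in T cells, and Ldha at 0.67 and 0.69 in B cells and at 1.69 and 1.77 in T cells.

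Among T cell subsets the cycling cells of each stood above the resting ones. The summed log2 ratio was 1.59 (1.49 to 1.68) and 1.998 (1.91 to 2.08) in CD4+ cells, 1.26 (1.13 to 1.38) and 1.26 (1.14 to 1.38) in CD8+ cells and 1.34 (1.22 to 1.45) and 1.43 (1.30 to 1.55) in Foxp3+ cells. Single cells weigh heavily in these small classes. One cell held 25.7% and 30.2% of the UMIs of the 10 genes in cycling CD4+ cells and 49.6% and 32.7% in cycling CD8+ cells. At rest, Foxp3+ cells were above CD4+ cells in the sum at 1360 against 1146 CPM and at 1321 against 1156 CPM, log2 0.25 (0.14 to 0.35) and 0.19 (0.09 to 0.29). The median log2 ratio of all genes compared was 0.12 and 0.12 there. That of all 10 members, those under the filter included, was 0.44 and 0.26. Past 1.5-fold in either direction were 1 of 8 and 2 of 8 members, where 20.5% and 20.5% of genes were. The median resting Foxp3+ cell held 11.4 UMIs per 10000 against 10.3 in CD4+ cells without butyrate. With butyrate the order of the medians was reversed, at 9.37 against 10.2. Tpi1 was 2.05- and 2.14-fold and Gpi1 1.39- and 1.45-fold higher in resting Foxp3+ than in resting CD4+ cells, while the intervals for Pgk1 and Pkm included 0 in both libraries. Resting CD8+ cells were below CD4+ cells in the sum, by log2 ratios of -0.22 (-0.26 to -0.17) and -0.15 (-0.19 to -0.10), with Pkm at 141 against 232 CPM and at 156 against 222 CPM. The median of all genes compared was also below 0, at -0.12 and -0.12, and that of the 10 members was -0.08 and 0.01. Past 1.5-fold in either direction were 1 of 10 and 0 of 9 members, where 17.0% and 15.8% of genes were.

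Resting B and T cells reached their similar sums with different members. Resting T cells had more Hk1, by 2.15- and 2.10-fold, and more Pfkp, by 1.56- and 1.87-fold. Ldha was 1.45- and 1.55-fold, Pkm 1.27- and 1.21-fold and Pgk1 1.15- and 1.18-fold higher in them. They had less Hk2, at 0.311 and 0.361 of the B cell level, less Slc2a1, at 0.517 and 0.559, less Tpi1, at 0.479 and 0.583, and less Aldoa, at 0.721 and 0.752. Past 2-fold, 1 of 10 members was higher in T cells in each library, Hk1, where 12.6% and 12.5% of all genes compared were, and 2 of 10 and 1 of 10 were lower, where 13.5% and 13.5% of genes were. These shares are close to those of genes at large. In cycling cells the sum was 1.57- and 1.96-fold higher in T cells, Ldha 2.37- and 2.85-fold and Pfkp 2.32- and 3.16-fold. The Hk2 interval included 0 without butyrate (-1.62 to 0.34), and with butyrate it reached from -3.04 to -0.004 on 8 and 10 UMIs.

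Resting cells with at least 1 Myc UMI were compared with those without. They numbered 1000 and 943 B cells and 667 and 768 T cells, and were deeper, with medians of 4992 and 5202 UMIs against 4146 and 4431 in B cells and 6420 and 7516 against 5550 and 6472 in T cells. In B cells the sum was slightly higher in the Myc cells, by log2 0.21 (0.16 to 0.25) and 0.18 (0.14 to 0.22). Ldha was higher by 0.51 (0.41 to 0.61) and 0.37 (0.27 to 0.48), and Hk2 by 0.88 (0.35 to 1.41) and 1.03 (0.47 to 1.59), the 1 of 10 members past 1.5-fold where 3.52% and 2.92% of genes were. In T cells the sum differed by 0.01 (-0.03 to 0.06) and 0.05 (0.01 to 0.09), and 0 of 9 and 0 of 10 members passed 1.5-fold, where 1.32% and 1.8% of genes did.

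Butyrate supplementation went with little difference in resting cells. The sum was 988 against 1009 CPM in resting B cells, a log2 ratio of -0.03 (-0.06 to -0.0025), and 1086 against 1055 CPM in resting T cells, 0.04 (0.02 to 0.07). Of the 10 members 0 passed 1.5-fold in either direction in resting B cells, where 6.18% of 11125 genes did, and 0 in resting T cells, where 6.44% of 11330 did. The lowest and highest members were Hk2 at -0.18 (-0.56 to 0.20) and Pkm at 0.07 (-0.01 to 0.15) in B cells. In T cells they were Hk1 at -0.03 (-0.19 to 0.14) and Tpi1 at 0.21 (0.05 to 0.37), with Pfkp at 0.20 (0.07 to 0.32). For Ldha the ratios were -0.03 (-0.10 to 0.04) and 0.07 (0.01 to 0.12). These intervals cover counting only, so the spread between mice, which were pooled, is not in them.

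In cycling cells the counts were lower and the values wider. The sum in cycling B cells was 1829 CPM with and 2028 CPM without butyrate, -0.15 (-0.26 to -0.04), and 1 of 7 members passed 1.5-fold, where 15.6% of 4469 genes did. That member was Pfkp, at 31.9 against 48.6 CPM (-0.61, -1.55 to 0.23), and Aldoa was at 255 against 378 CPM (-0.56, -0.87 to -0.27). Without the cells of 5 or more Jchain UMIs the Pfkp ratio turned to 0.29. Of the 3 members under the count filter, Slc2a1 and Hk1 lay highest, at 1.02 (-0.15 to 2.12) and 1.11 (-0.50 to 2.60). In cycling T cells the sum was 3582 against 3183 CPM, 0.17 (0.10 to 0.24). Pgk1 was the highest member at 0.32 (0.13 to 0.52), followed by Tpi1 at 0.30 (0.08 to 0.52) and Aldoa at 0.25 (0.07 to 0.43), and Ldha was at 0.10 (-0.02 to 0.22). The lowest was Hk2 at -0.66 (-2.11 to 0.66), from 8 and 15 UMIs, the 1 of 10 members past 1.5-fold where 16.1% of 6960 genes were. By subset the sum differed by 0.42 (0.31 to 0.54) in the 13 and 13 cycling CD4+ cells, by 0.08 (-0.09 to 0.25) in CD8+ and by 0.05 (-0.05 to 0.16) in Foxp3+ cells. The median cycling CD4+ cell held 35.4 UMIs per 10000 in both libraries, and after thinning the mean was 7.62 UMIs without and 7.54 with butyrate.

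**Figure D5:**
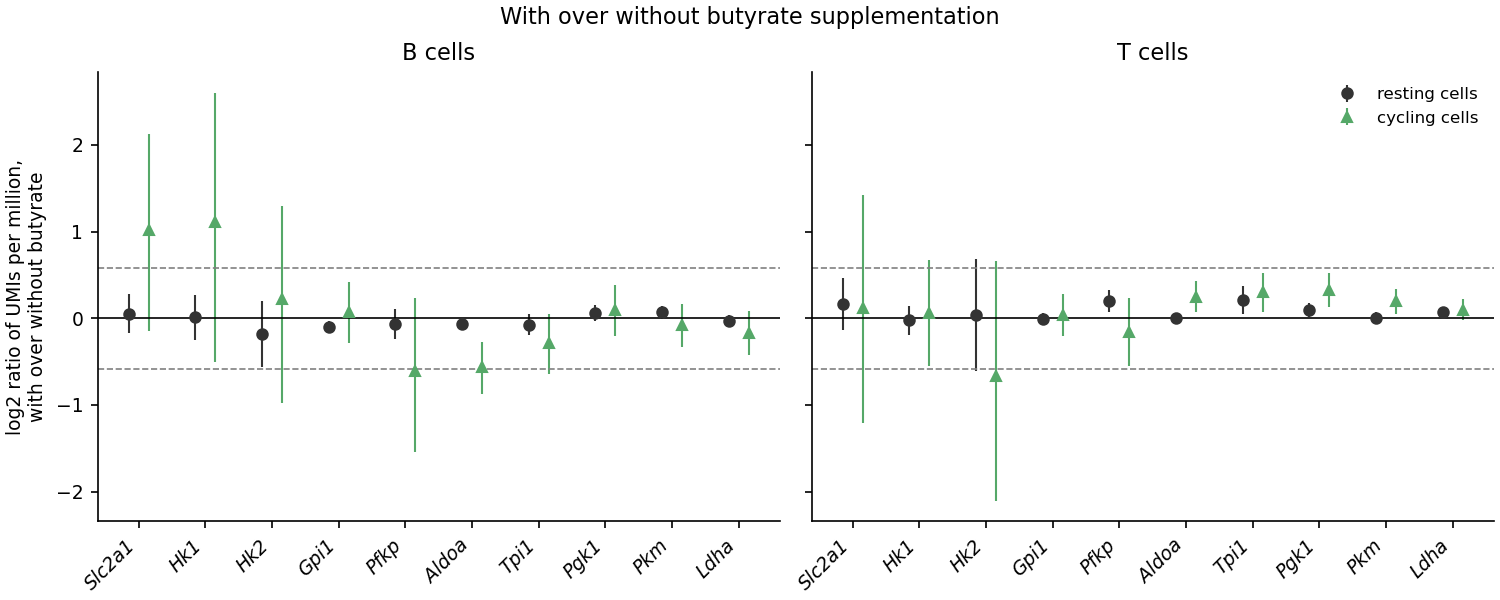
Log2 ratio of CPM with over without butyrate in B cells (left) and T cells (right). Circles are resting and triangles cycling cells, bars are exact 95% intervals and dashed lines mark 1.5-fold; the resting values run from -0.18 to 0.21 and the cycling ones from -0.66 to 1.11.

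Other genes of the pathway, 27 in a list of transporters, isoforms and regulators, filled in the remaining steps. Of those compared in cycling over resting B cells, 3 of 13 without and 2 of 6 with butyrate were at least 2-fold higher, and in T cells 4 of 11 and 4 of 11. Of all genes compared, 10.0% and 7.47% were that much higher in B cells and 16% and 16.4% in T cells. Of the listed genes, 2 of 13 and 0 of 6 were at least 2-fold lower in B cells, and 1 of 11 and 1 of 11 in T cells. At least 2-fold higher in both libraries and both lineages were Gapdh and Pgam1, which act on either side of Pgk1. Gapdh stood at log2 1.72 (1.66 to 1.79) and 1.43 (1.32 to 1.55) in B cells and at 2.22 (2.16 to 2.29) and 2.23 (2.16 to 2.29) in T cells, though reads of its many near-identical pseudogenes may be lost in counting. Pgam1 stood at 1.62 and 1.48 in B cells and at 2.11 and 2.25 in T cells. Hif1a, the oxygen-regulated activator of the pathway, was higher in all cycling T cells together at 1.69 (1.49 to 1.88) and 1.72 (1.49 to 1.94). Within Foxp3+ cells the difference was smaller, with 179 CPM at rest and 214 CPM in cycling cells without butyrate, and 159 and 166 CPM with butyrate. CD4+ cells without butyrate had 106 and 369 CPM, and CD8+ cells with butyrate 41.4 and 68.1 CPM. The part of the subset mix in the Hif1a ratios was not tested. In cycling B cells Hif1a was lower without butyrate at -0.59 (-0.996 to -0.21), with butyrate at -0.23 (-0.89 to 0.36). Pdk1, which keeps pyruvate out of the mitochondrial dehydrogenase, was lower in cycling T cells at -1.96 (-2.61 to -1.38) and -2.08 (-2.82 to -1.43). At rest Ldhb, the heart-type lactate dehydrogenase subunit, had 19.5 and 17.0 CPM in T cells against 2 and 6 UMIs in all resting B cells, and Aldoc was at 9.07 and 9.38 CPM in B cells against 1.32 and 0.71 CPM in T cells.

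The pattern of the sum was compared with every other gene over 16 values, resting and cycling B, CD4+, CD8+ and Foxp3+ cells of both libraries, among 4457 genes of at least 50 CPM in 1 of them. Closest outside the pathway were Cdkn2c (Pearson r = 0.982), an inhibitor of cyclin-dependent kinases, Cops6 (0.981), Prelid1 (0.978), Atp5c1 (0.976), a subunit of the mitochondrial ATP synthase, and Ap1s1 (0.975). Among the members r with the sum was 0.989 for Pkm, 0.980 for Ldha, 0.979 for Pgk1, 0.945 for Tpi1 and -0.169 for Slc2a1. The 16 values share 2 libraries and the split into deep cycling and shallower resting cells, and the members are part of the sum.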

How the data were processed

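Single-cell 3′ libraries of mediastinal lymph node cells, 1 without and 1 with butyrate, were used. The deposited values are raw UMI counts per gene and cell that the authors made with Cell Ranger 6.0.1 on mm10, named in the submitters' processing notes. Kept cells had at most 10% of their UMIs from mitochondrial genes and at least 200 detected genes, and the highest Scrublet scores (721 and 592 cells, 0.8% for each 1000 barcodes) were left out as doublets (Python 3.11.15, scanpy 1.11.5, scipy 1.17.1). Counts were summed over the cells of a class, divided by the class total and given as CPM. No test was possible with 1 library per condition, and cells were not used as replicates. Intervals at 95% were exact Poisson for levels, Clopper-Pearson for shares and conditional binomial for ratios, and cover counting error only. Genes entered a comparison with at least 10 expected UMIs in the smaller sum. Folds of 2 (cycling, lineage) and 1.5 (butyrate, Myc) marked a difference. The 10 members and the gene lists were chosen with earlier results of these data known. All 10 members are named, and pathway genes get values when past the fold in both libraries. The closest 5 genes were ranked by Pearson r of log2(CPM + 10). A total of 10 alternatives was planned and 2 were added after seeing the data. The ratios were checked on simulated independent Poisson counts, the model the intervals assume. That check leaves out spread between cells and cannot tell how far the intervals cover it. Sums over 3 of the marker lists are not reported here.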

Additional observations from a re-analysis of the deposited data

Results flagged for a closer look

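The sum of the 10 genes with butyrate differed in direction between lineages, with log2 ratios in resting cells of -0.032 in B cells and 0.04 in T cells, and in cycling cells of -0.15 in B cells and 0.17 in T cells. Aldoa in cycling cells showed the same opposition, at -0.56 in B cells and 0.25 in T cells. The median cycling cell ran the other way, at 14.5 without and 15.9 with butyrate in B cells and 31.0 and 29.4 in T cells (UMIs of the 10 genes per 10000), and 1 cell held 24.7% of those UMIs in cycling B cells with butyrate. Each value rests on 1 library per condition, and the difference between the lineages was not tested.

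Cells outside both gates that had at least 3 of 5 myeloid markers (27 and 18 cells) gave 2088 CPM (1905 to 2285) and 1974 CPM (1800 to 2162) for the 10 genes, above resting B and T cells of either library.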

How the results depend on the processing

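All 48 medians of the members in cycling over resting cells stayed above 0. The 192 values of Tpi1, Pgk1, Pkm and Ldha ran from 0.67 to 3.39 on the log2 scale, with 184 at 2-fold or more. Some of these values repeat the reported ones by construction and add no check. The filter of 20 expected UMIs changes no ratio. A B cell gate of at least 1 UMI of Cd79a and leaving out Jchain cells changed no T cell class. Such repeats are also counted in the totals below. The median in T cells without butyrate was 1.16 without ribosomal, mitochondrial and immunoglobulin genes in the scaling, 1.09 with a pseudocount of 10 CPM and 1.14 against resting cells of at least 10000 UMIs. In B cells without butyrate it was 0.54 without Jchain cells and 0.55 against those deep resting cells. After thinning, which left fewer genes above the filter, 2 of 5 members passed 2-fold in B cells without butyrate (7.60% of genes), 0 of 1 in B cells with butyrate (4.47%) and 3 of 4 in T cells with butyrate (13.65%). With Jchain cells left out 2 of 6 passed in B cells with butyrate (4.11%), and against deep resting cells 3 of 10 and 2 of 7 in B cells without and with butyrate (11.25% and 8.35%). The members past 1.5-fold with butyrate in cycling B cells numbered 2 without doublet removal or with at least 2 UMIs of Mki67 and Top2a, and 0 with the pseudocount, with at least 20 expected UMIs or without Jchain cells, where Pfkp turned to 0.29. In cycling T cells they numbered 0 under the first 4 of these and without the cell richest in the 10 genes. Except where the filter or the cells left out are the change itself, the cause was not tested. Of 920 values of single genes 48 had the other sign than the reported value, and for 5 of them the reported interval excluded 0 (Pfkp in B cells without butyrate under both added alternatives, Hk2 in B cells with butyrate without 1 cell, and Hk1 and Gpi1 in T cells after thinning). Of 184 medians and counts 163 stayed and 21 moved, with such repeats among those that stayed. Resting butyrate values ran from -0.28 to 0.43 and cycling ones from -1.91 to 3.17. No paired analysis was possible because each condition is 1 library. Depth limits Slc2a1, Hk1 and Hk2, with 7 to 51 UMIs in cycling B and T cells, and Pfkp in cycling B cells with butyrate, with 14.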
